A study of Mus musculus with 45 samples.

Results

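Hepatic expression of 10 genes that carry fatty acids into cells or release them from lipoproteins was followed over the dose response to TCDD (2,3,7,8-tetrachlorodibenzo-*p*-dioxin), a persistent contaminant that activates the aryl hydrocarbon receptor. The genes were chosen by name for their roles in lipid uptake, with earlier results of these data known. The set held *Cd36*, *Vldlr*, *Lpl*, *Lipc*, *Lipg*, *Fabp2*, *Fabp4*, *Fabp5*, *Slc27a2* and *Pnpla2*. They are 10 of the 39179 Ensembl genes counted, and all 10 were among the 17464 genes tested, a set that needed over 4 reads in some mouse. Liver RNA came from 45 female C57BL/6 mice, with 5 mice in each of 9 groups. The vehicle group received sesame oil by gavage, and the other groups received TCDD in sesame oil, at 8 doses from 0.01 µg/kg up to 30 µg/kg, spaced about evenly on a log scale. Dosing was repeated every 4 days for 28 days, from postnatal day 28 in the study's methods. The sample labels also state that every mouse, controls included, was ovariectomized, and they carry the word daily beside the 4-day interval. The methods mention neither, and they refer to estrous stage, whose effects they assume randomization evened out. Each library is 1 mouse, so the spread between mice is the error used throughout.

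Fatty acids reach a liver cell by separate routes. Lipases on the vessel wall split triglyceride in circulating lipoproteins, receptors and transporters such as CD36 take up the free acids, and whole particles are taken in by lipoprotein receptors. Small cytosolic binding proteins then carry the acids, acyl-CoA synthetases activate them, and droplet lipases release them again from stored triglyceride.

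The libraries held 11767284 to 56509899 reads on genes. Values are given as CPM, the reads of a gene relative to all reads on genes of its library, scaled with TMM factors that correct for differences in library composition. A gene was called where edgeR's quasi-likelihood test against vehicle gave a Benjamini-Hochberg adjusted p under 0.05 over the 17464 genes. As a check of the dose labels, 3 genes that respond to dioxin were read. *Cyp1a2* was called at 0.03 µg/kg and every higher dose, and *Cyp1a1* at 0.1 µg/kg and every higher dose. *Tiparp* was called only at 3, 10 and 30 µg/kg, and none of the 3 at 0.01 µg/kg. *Cyp1a1*, which the receptor switches on directly, averaged 7.498 CPM (SD 6.32, n = 5) without TCDD and 7627 CPM (SD 1186, n = 5) at the highest dose (edgeR adjusted p 1.07e-12). In 1 mouse at 0.01 µg/kg *Cyp1a1* stood at 69.7 CPM, and that mouse (replicate 5) also had the highest summed macrophage markers of all 45 mice, at 1191 CPM. No member was called at that dose. Summed hepatocyte markers stood at 107100 CPM or more in every mouse and adipocyte markers under 1 CPM.

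The promoters of the 4 called members that the promoter table holds are shown, so that 2 with higher and 2 with lower levels at 30 µg/kg can be read side by side. They are the 250 bases before each RefSeq transcript start in GRCm38.p6, written 5′ to 3′ on the gene's strand. Capitals mark AGGTCA, the half-site of nuclear receptor elements, and GCGTG, the core of the dioxin response element, on either strand (read as TGACCT or CACGC on the other).
Cd36 (chr5:17835897-17836146, minus strand): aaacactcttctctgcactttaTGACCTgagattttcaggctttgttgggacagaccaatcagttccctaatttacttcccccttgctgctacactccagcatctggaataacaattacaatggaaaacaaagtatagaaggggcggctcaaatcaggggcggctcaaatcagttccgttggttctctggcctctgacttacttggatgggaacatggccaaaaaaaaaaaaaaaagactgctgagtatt
Fabp2 (chr3:122894822-122895071, plus strand): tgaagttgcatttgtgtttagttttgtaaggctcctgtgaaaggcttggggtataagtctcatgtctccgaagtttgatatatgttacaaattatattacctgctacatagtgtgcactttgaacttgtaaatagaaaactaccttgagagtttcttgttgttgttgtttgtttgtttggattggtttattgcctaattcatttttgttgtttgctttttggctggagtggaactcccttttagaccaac
Lipc, upstream start (chr9:70952222-70952471, minus strand): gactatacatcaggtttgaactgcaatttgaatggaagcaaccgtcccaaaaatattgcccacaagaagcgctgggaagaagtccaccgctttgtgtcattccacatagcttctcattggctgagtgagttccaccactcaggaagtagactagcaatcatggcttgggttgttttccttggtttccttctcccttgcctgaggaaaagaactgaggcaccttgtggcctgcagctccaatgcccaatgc
Lipc, downstream start (chr9:70934809-70935058, minus strand): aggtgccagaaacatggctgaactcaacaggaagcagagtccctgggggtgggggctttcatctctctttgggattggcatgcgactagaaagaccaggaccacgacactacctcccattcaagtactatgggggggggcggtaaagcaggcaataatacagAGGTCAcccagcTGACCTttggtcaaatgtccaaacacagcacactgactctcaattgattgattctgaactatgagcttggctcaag
Slc27a2 (chr2:126552774-126553023, plus strand): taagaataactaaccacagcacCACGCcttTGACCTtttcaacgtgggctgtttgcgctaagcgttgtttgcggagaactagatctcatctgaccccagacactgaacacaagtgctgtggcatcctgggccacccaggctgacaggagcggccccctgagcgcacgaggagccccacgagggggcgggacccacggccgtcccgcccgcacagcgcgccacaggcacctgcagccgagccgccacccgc

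Promoters were in the table for 6 members, with 8 starts in all. AGGTCA occurred in 3 of the 8. It lay 228 bases before the listed start of *Cd36*, 88 and 76 bases before the downstream start of *Lipc* and 220 bases before that of *Slc27a2*. The start listed for *Cd36* lies inside the annotated span of the gene, chr5:17781690-17888801 on the minus strand, and not at its 5′ end. AGGTCA was in 14% of the 32851 promoters of the table. GCGTG occurred in 1 of the 8, 228 bases before the start of *Slc27a2*, against 28.2% of all promoters. The direct repeat known as DR1, a pair of AGGTCA copies 1 base apart, was in none of them and in 0.0335% of all promoters. These windows hold only the bases nearest the start, and matching letters describe the sequence without showing a bound site.

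*Cd36* and *Lpl* were the members that moved most. Both were higher than in vehicle mice at 1, 3, 10 and 30 µg/kg, and at each of those doses all 5 mice lay above all 5 vehicle mice. The share of all genes tested with such a separation upward was 2.74%, 4.6%, 8.1% and 10.3% at these doses, and the shares separated downward in the 1, 3 and 30 µg/kg groups were 2%, 3.36% and 9.57%. At 30 µg/kg *Fabp2* was also higher, and *Lipc* and *Slc27a2* were lower. *Lipc* was lower at 3 µg/kg as well. *Vldlr*, *Lipg*, *Fabp4*, *Fabp5* and *Pnpla2* were called against vehicle at no dose.

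Members higher than vehicle numbered 2 of 10 at 1 µg/kg, where 1.24% of all genes tested were higher and 0.515% lower, and 2 of 10 at 3 µg/kg, where 4.34% were. They numbered 2 at 10 µg/kg, beside 8.47% of all genes (7.47% were lower), and 3 at 30 µg/kg, beside 15.5%. Members lower than vehicle numbered 1 at 3 µg/kg, beside 3.2% of all genes, and 2 at 30 µg/kg, beside 14.1%. With a fold of at least 2 required as well, 1 member was higher at 1 µg/kg (0.687% of all genes), and none was lower at 3 µg/kg (0.819%) or 30 µg/kg (3.42%) by edgeR. With TMM factors 2700 genes were higher and 2467 lower at 30 µg/kg, whereas without composition factors the split was 4996 to 1222. That scaling moved the median log2 fold change of all genes at 30 µg/kg from 0.02 to 0.23. All 8 doses were compared with the same 5 vehicle mice, so the doses are not independent of each other. No member was called at 0.01, 0.03, 0.1 or 0.3 µg/kg by edgeR or by DESeq2. Of all genes, edgeR called 0% at 0.01 µg/kg, 0.0344% higher and 0.0229% lower at 0.03 µg/kg, 0.0229% higher and 0% lower at 0.1 µg/kg, and 0.321% higher and 0.143% lower at 0.3 µg/kg. At an unadjusted edgeR p under 0.05 there was 1 member at each of the 3 lowest doses, where 10.1%, 11.7% and 5.15% of all genes passed, and 3 members at 0.3 µg/kg, where 10.5% did. An F test over the 9 groups together was passed by 7 of 10 members, compared with 28.8% of all genes. Because the members were chosen with earlier results of these data known, these counts beside the shares of all genes are descriptions and no test of the set.

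**Figure D1:**
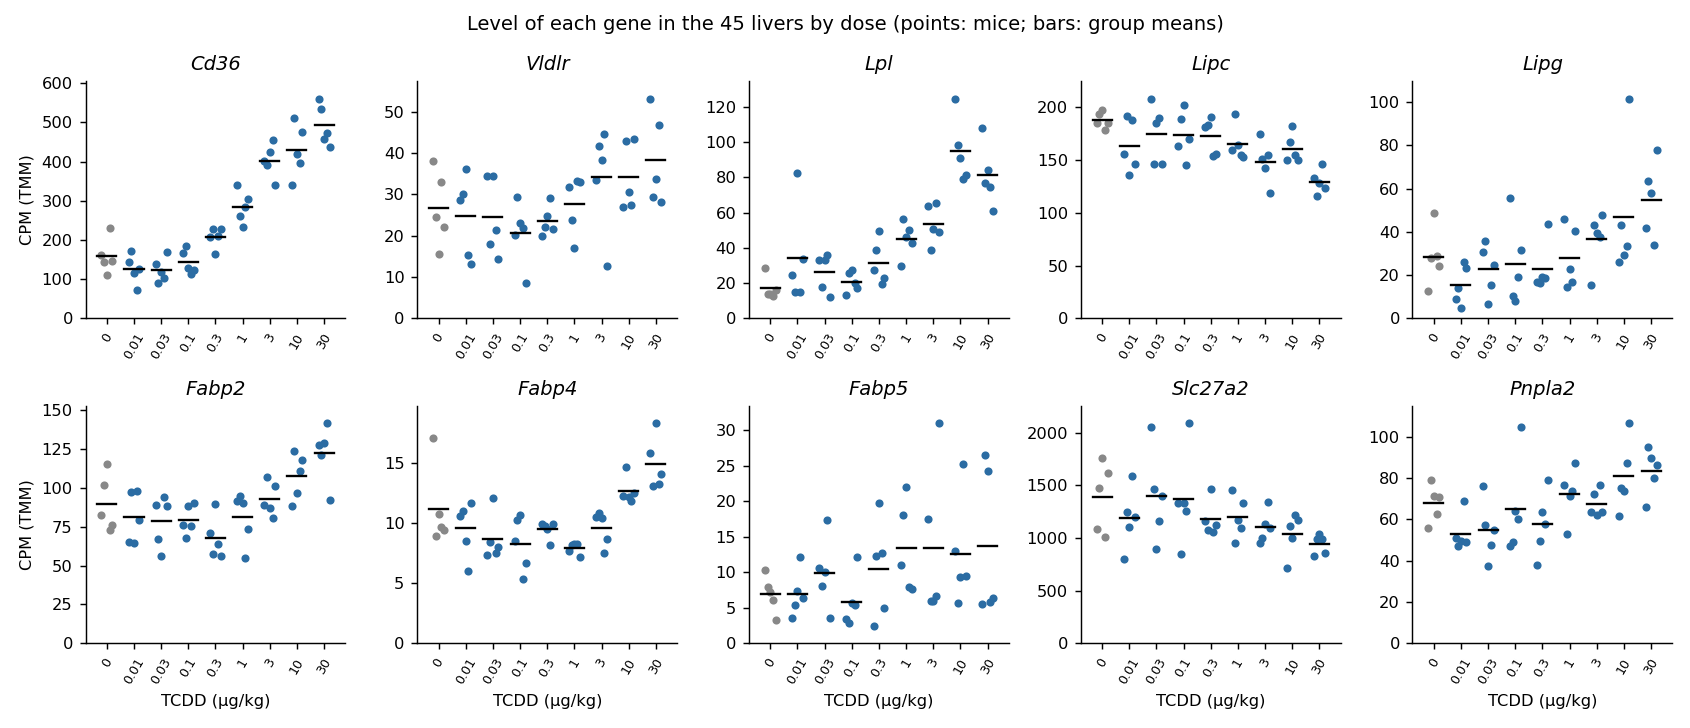
CPM (TMM-scaled, linear axes from 0) of each of the 10 genes in each of the 45 mice, by dose of TCDD in µg/kg, with vehicle mice in gray and bars at the group means. *Cd36* and *Lpl* in the 4 highest dose groups lie above every vehicle mouse, while *Fabp5* and *Lipg* spread widely within most groups.

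*Cd36* encodes a scavenger receptor that takes up long-chain fatty acids and oxidized lipoproteins. In the vehicle livers it stood at 162, 144, 110, 232 and 147 CPM. The 5 mice at 0.3 µg/kg gave 207, 227, 165, 211 and 228 CPM, within the range of the vehicle mice. At 1 µg/kg the values were 339, 262, 233, 284 and 306 CPM, just clear of the highest vehicle mouse. They were 400, 391, 424, 455 and 340 CPM at 3 µg/kg. At 10 µg/kg they were 341, 512, 420, 395 and 476 CPM. The 30 µg/kg group held 561, 534, 457, 473 and 436 CPM, so the lowest of these mice had a level above that of every mouse at 1 µg/kg or less. The log2 fold change was 0.84 (SE 0.18, adjusted p 0.00351) at 1 µg/kg, 1.34 (SE 0.18, adjusted p 7.46e-07) at 3 µg/kg and 1.43 (SE 0.18, adjusted p 7.70e-08) at 10 µg/kg. It reached 1.63 (SE 0.18, adjusted p 1.77e-09) at 30 µg/kg. An exact two-sided permutation test of 5 mice against 5 gave p = 0.007937 at each of these 4 doses, the smallest such a test can give. The differences at 0.01 and 0.03 µg/kg were -0.33 and -0.35, and neither passed (adjusted p 0.532 and 0.433, edgeR).

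A sigmoid curve in log dose placed the midpoint of the fitted change of *Cd36* at 0.676 µg/kg (95% interval 0.372 to 1.15). The residual SD was 0.30 on the log2 scale and R squared was 0.871. Leaving out each of the 45 mice in turn moved that dose between 0.525 and 0.708 µg/kg.

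*Vldlr*, the receptor that binds triglyceride-rich particles, had no called difference. Its levels ran between 15.59 and 37.996 CPM in vehicle mice and from 28.2 to 53.1 CPM at 30 µg/kg. The log2 difference there was 0.53, with a 95% interval of -0.08 to 1.13 and an adjusted p of 0.191, an interval that holds both 0 and a rise of that upper size. At 3 µg/kg the values were 33.5, 41.7, 38.3, 44.6 and 12.6 CPM, and 1 mouse lay below every vehicle mouse while 3 lay above all of them.

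**Figure D2:**
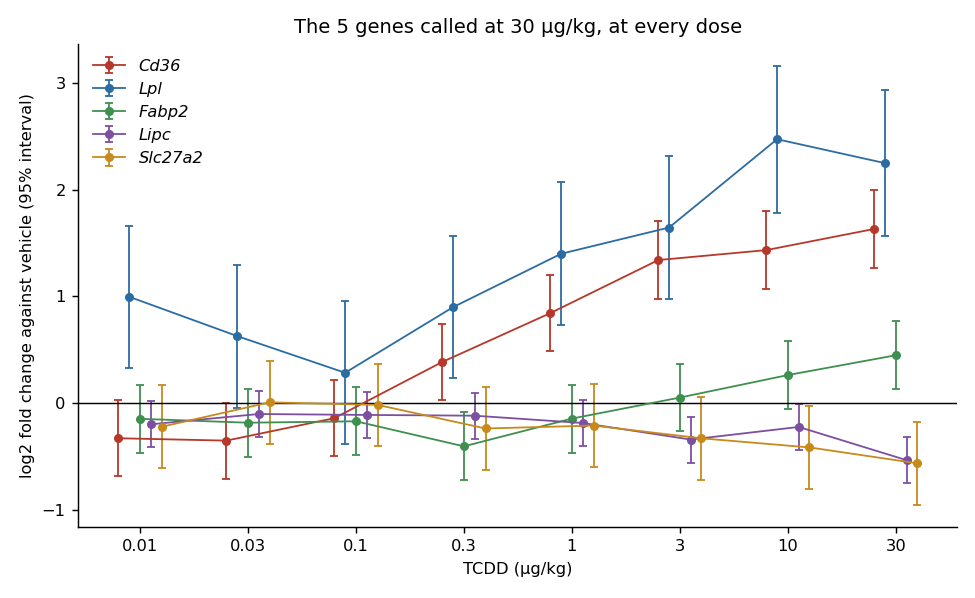
Log2 fold change against vehicle with its 95% interval (edgeR) for the 5 genes called at 30 µg/kg, at each of the 8 doses of TCDD in µg/kg. *Cd36* reached 1.63 and *Lpl* 2.25 at 30 µg/kg, while *Fabp2*, *Lipc* and *Slc27a2* lay between -0.57 and 0.45 at every dose.

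Among the lipases, *Lpl* had the greatest rise. Lipoprotein lipase splits triglyceride of chylomicrons and very low density lipoproteins at the vessel wall, and it is low in the adult liver. Vehicle livers held 28.7, 13.9, 13.7, 12.9 and 16.4 CPM. At 1 µg/kg the mice gave 29.5, 56.4, 46.3, 49.9 and 42.5 CPM, with the lowest barely above the highest vehicle mouse. Values at 3 µg/kg were 63.6, 38.9, 50.4, 65.3 and 49.1 CPM. At 10 µg/kg they were 124, 98.0, 90.7, 78.7 and 81.5 CPM, and at 30 µg/kg 108, 76.8, 84.3, 74.7 and 61.0 CPM. These last 2 groups overlapped each other and neither overlapped the vehicle mice. The log2 fold change was 1.398 (SE 0.33, adjusted p 0.0140) at 1 µg/kg and 1.64 (SE 0.33, adjusted p 0.000857) at 3 µg/kg. It was 2.47 (SE 0.34, adjusted p 5.50e-07) at 10 µg/kg and 2.25 (SE 0.34, adjusted p 1.45e-06) at 30 µg/kg. Over the 10 fits that left out 1 mouse, the edgeR adjusted p at 1 µg/kg ranged from 0.00544 to 0.04955, just under the threshold. The step from 10 to 30 µg/kg was -0.22 (SE 0.32, adjusted p 0.958).

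For *Lpl* below 1 µg/kg, single mice stood apart. Replicate 3 at 0.01 µg/kg stood at 82.3 CPM, within the range of the 30 µg/kg group, while the other 4 mice of its group held 14.7 to 33.7 CPM. The log2 fold change at 0.01 µg/kg was 1.00 (SE 0.33, adjusted p 0.298) with that mouse, and the lowest value on leaving out 1 mouse was 0.38, which came without it. The summed macrophage markers of that mouse were 213 CPM, and those of replicate 5 of the same group, with 33.7 CPM of *Lpl*, were 1191 CPM. At 0.3 µg/kg the values 27.6, 39.02, 49.6, 19.4 and 22.7 CPM overlapped those of the vehicle mice, with a log2 difference of 0.90 (adjusted p 0.300). The curve for *Lpl* had its midpoint at 1.18 µg/kg, with a wide 95% interval of 0.398 to 16.2 µg/kg that overlapped the interval of *Cd36*.

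*Lipc*, the hepatic lipase that acts on remnants and high density lipoprotein, fell by 0.54 on the log2 scale at 30 µg/kg (SE 0.11, adjusted p 0.000143). Its vehicle values were the tightest of the members, at 184, 193, 197, 178 and 184 CPM. The 30 µg/kg mice held 133, 116, 128, 146 and 123 CPM, all below every vehicle mouse (exact permutation p = 0.007937). At 3 µg/kg the values of 174, 150, 142, 154 and 118 CPM also lay below all vehicle mice, a fall of 0.34 (SE 0.11, adjusted p 0.0399). That call was lost in 8 of the 10 fits that left out 1 of these mice, all but those without replicates 1 and 4 at 3 µg/kg, and over the 10 fits the adjusted p ranged from 0.0216 to 0.146. At 10 µg/kg 4 of 5 mice lay below all vehicle mice, and the log2 difference of -0.22 (95% interval -0.44 to -0.01) did not pass (adjusted p 0.154).

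*Lipg* encodes endothelial lipase, mainly a phospholipase on high density lipoprotein. Its vehicle levels were 12.6, 28.0, 48.7, 28.96 and 24.5 CPM, and at 30 µg/kg 41.7, 63.8, 57.9, 33.8 and 77.8 CPM, with 3 mice above all vehicle mice. The log2 difference was 0.94 (95% interval 0.01 to 1.88, adjusted p 0.123). The exact permutation p of the same groups was 0.0317. Its spread within groups was an SD of 0.81 on the log2 scale, greater than in 97.8% of the genes tested, and *Lipg* passed the F test over the 9 groups (adjusted p 0.0339, edgeR).

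*Pnpla2*, the adipose triglyceride lipase that starts the breakdown of stored triglyceride inside cells, gave 55.8, 78.9, 71.5, 62.4 and 70.9 CPM in vehicle mice. In the 30 µg/kg group it gave 65.9, 95.1, 89.6, 79.95 and 86.5 CPM, with 4 mice above all vehicle mice. The log2 difference of 0.30 (95% interval -0.07 to 0.67) did not pass (adjusted p 0.234). At 0.01 µg/kg 4 of 5 mice lay below all vehicle mice with a log2 difference of -0.36 (adjusted p 0.517). *Pnpla2* passed the F test over the groups (adjusted p 0.0260).

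**Figure D3:**
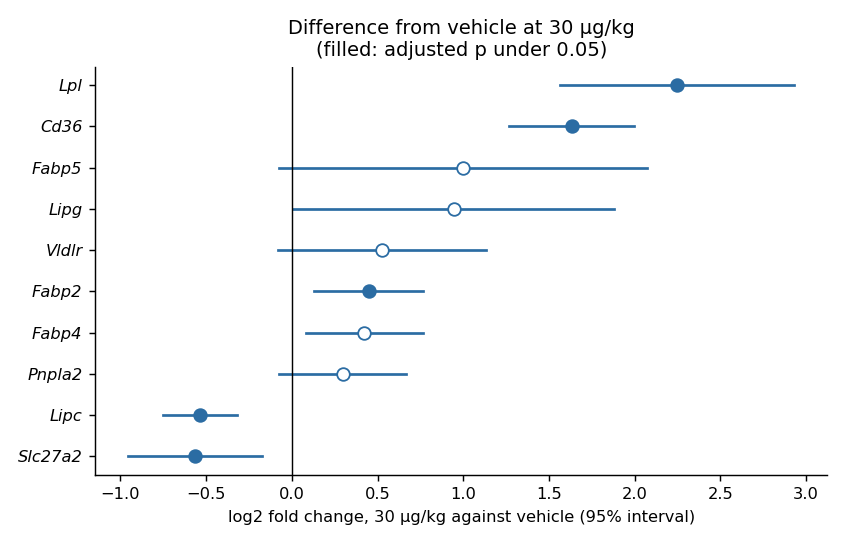
Log2 fold change at 30 µg/kg against vehicle for the 10 genes, with 95% intervals from edgeR and filled points where the adjusted p was under 0.05. The estimates of *Fabp5* and *Lipg* are close to 1 but their intervals reach 0 or nearly so, whereas the short interval of *Lipc* lies wholly below 0.

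The 3 fatty acid binding proteins did not move alike. *Fabp2*, best known from the intestine, stood at 82.4, 102, 115, 73.0 and 75.97 CPM in vehicle livers and at 128, 121, 129, 142 and 92.2 CPM at 30 µg/kg. Of the latter, 4 mice lay above all vehicle mice. The log2 fold change was 0.45 (SE 0.16, adjusted p 0.0277). The call was lost in 6 of 10 fits that left out 1 mouse, namely vehicle replicate 1, 4 or 5 or 30 µg/kg replicate 1, 3 or 4, where the adjusted p rose to as much as 0.0803. It was also lost when p-values were adjusted over all doses together (0.0896). At 0.3 µg/kg the mean was lowest, at 67.7 ± 13.6 CPM (SD, n = 5), with a log2 difference of -0.41 (adjusted p 0.338). Of the intestinal markers, *Cdx1* and *Cdx2* had no counted read in vehicle mice or at 30 µg/kg, and the summed markers ran from 8.42 to 28.3 CPM in vehicle mice and from 13.4 to 24.2 CPM at 30 µg/kg.

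*Fabp4*, the binding protein of adipocytes, macrophages and capillary endothelium, had its lowest mean at 1 µg/kg and its highest at 30 µg/kg, with no dose called against vehicle. Vehicle livers held 17.1, 8.90, 10.8, 9.72 and 9.40 CPM. At 1 µg/kg the values of 7.69, 8.14, 8.26, 8.28 and 7.17 CPM all lay below the vehicle mice. In the 30 µg/kg mice 15.8, 13.1, 18.3, 13.3 and 14.1 CPM were measured, above 4 of the 5 vehicle mice. The log2 difference was -0.49 (adjusted p 0.158) at 1 µg/kg, where the exact permutation p was 0.007937, and 0.42 (95% interval 0.08 to 0.76, adjusted p 0.0530) at 30 µg/kg. Without vehicle replicate 1, the highest of its group, the value at 30 µg/kg was 0.63 with an adjusted p of 0.00372. The F test over the groups passed (adjusted p 0.000164).

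*Fabp5*, the epidermal binding protein, had the least stable level. The vehicle mice gave 10.3, 7.95, 7.21, 6.07 and 3.23 CPM, and at 30 µg/kg 2 mice stood at 26.6 and 24.2 CPM while the other 3 held 5.45, 5.79 and 6.41 CPM. Its log2 difference of 1.00 had a 95% interval from -0.07 to 2.07 (adjusted p 0.159). The SD within groups of 0.89 on the log2 scale was greater than in 98.8% of the genes tested. Of its 50-base stretches, 5.48% also occur in 5 other annotated genes. Reads from them can align to more than 1 place, and such reads are not in these counts. The reads counted on the most covered of these, *Gm6166*, numbered 2 to 138 per mouse.

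*Slc27a2* encodes an acyl-CoA synthetase that also imports very long-chain and other fatty acids into hepatocytes. Vehicle mice gave 1088, 1477, 1758, 1008 and 1618 CPM, and mice at 30 µg/kg 827, 986, 1037, 986 and 859 CPM, with 4 of the latter below all vehicle mice. It fell by 0.57 on the log2 scale (SE 0.19, adjusted p 0.0228). Its 4 lost calls among the 10 fits without 1 mouse came without vehicle replicate 3 or 5 or 30 µg/kg replicate 1 or 5, with adjusted p up to 0.0803, and the call was also lost without composition factors (adjusted p 0.134) and with adjustment over all doses together (0.0764). A partly overlapping antisense gene, *Gm26697*, shares 9.81% of its 50-base stretches. The counts do not state strand and gave *Gm26697* 0 to 20 reads per mouse, compared with 10714 or more on *Slc27a2*.

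Between neighboring doses no member was called in any of the 8 steps by edgeR. Of all genes, 0.0115% were higher in the step from 0.03 to 0.1 µg/kg, 0.0458% in the next, 0.115% and 0.155% in the following ones, then 0.55% and, from 10 to 30 µg/kg, 0.429%. At most 0.235% were lower in any step. Of the 80 steps of members tested, 7 had an unadjusted edgeR p under 0.05, and 7.07% of the steps of all genes did. *Cd36* had 3 of these, at 0.1 to 0.3, 0.3 to 1 and 1 to 3 µg/kg, with log2 steps of 0.53, 0.46 and 0.50.

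Per transcript length the order of the members shifted with dose. RPKM here is CPM per kilobase of the principal transcript. In vehicle livers *Slc27a2* was first at 476 ± 113 RPKM (SD, n = 5), followed by *Lipc* at 97.5 ± 3.88, *Fabp2* at 93.0 ± 18.9 and *Cd36* at 46.7 ± 13.3. The ranges of *Lipc* (92.8 to 102 RPKM) and *Fabp2* (75.6 to 119 RPKM) overlapped, as did those of *Cd36* (32.3 to 68.2) and *Pnpla2*, at 37.7 ± 4.98 RPKM. Below them came *Fabp4* at 12.47 ± 3.75, *Lipg* at 7.54 ± 3.44, *Fabp5* at 7.04 ± 2.61, *Lpl* at 4.16 ± 1.60 and *Vldlr* at 3.34 ± 1.12 RPKM, and the range of each of these 5 overlapped that of the next in the order. At 30 µg/kg *Cd36* was the second, at 145 ± 15.5 RPKM, with *Fabp2* next at 127 ± 19.04 RPKM and an overlapping range. *Lipc* was then the fourth at 67.3 ± 5.80 RPKM, below the range of *Fabp2*. *Lpl* was the sixth at 19.7 ± 4.21 RPKM, with a range that overlapped that of *Fabp4* at 16.6 ± 2.45 RPKM. With the length of all annotated exons in place of the principal transcript, *Lpl* was the last in vehicle livers and the seventh at 30 µg/kg, and *Fabp2* stood above *Lipc* in vehicle livers.

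Over the 45 mice the level of *Cd36* tracked that of *Lpl*, with a Pearson r of 0.73 of log2 CPM, but within dose groups r was -0.12. Other pairs were closer within groups than over all mice. *Pnpla2* and *Slc27a2* had r = 0.26 over the 45 mice and 0.72 after group means were removed, and for *Lpl* and *Lipg* r turned from 0.17 to -0.63. These are descriptions over 45 mice that share doses and sequencing runs, and 45 pairs were looked at.

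The genes whose level over the 45 mice was most like that of *Cd36* were *Insl6* (Pearson r 0.93, within groups 0.25) and *Fbxw9* (0.92, within groups 0.22), out of 12402 genes with a mean of at least 1 CPM. For *Lpl* they were *Neurl3* (0.87, within groups 0.50) and *Fabp12* (0.86, within groups 0.42). Those for *Lipc* were *Rdh7* (0.80, within groups 0.72) and *Gcgr* (0.79, within groups 0.70). *Lipg* was closest to *Zfp612* (0.87, within groups 0.83) and *Ripk4* (0.86, within groups 0.83), and *Pnpla2* to *Gnl1* (0.85, within groups 0.81) and *Psmd9* (0.85, within groups 0.77). *Fabp4* was closest to *Npr1* (0.80, within groups 0.70) and *Cavin1* (0.79, within groups 0.62), and *Fabp2* to *Derl1* (0.73, within groups 0.47) and *Unc5b* (0.72, within groups 0.38). The likeness of *Cd36* to its 2 genes was thus mostly one of dose groups, and that of *Lipg* and *Pnpla2* was nearly as strong between mice of the same dose.

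*Fabp12* lies in the same stretch of chromosome 3 as *Fabp5* and *Fabp4* in GRCm38. *Fabp5* spans chr3:10012548-10016607 on the plus strand, *Fabp4* chr3:10204088-10208576 on the minus strand and *Fabp12* chr3:10244209-10301183 on the minus strand. It went from 0 to 3 reads per vehicle mouse to 230 to 633 reads per mouse at 30 µg/kg. The level was 0.0833 ± 0.0767 CPM in vehicle livers, 2.39 ± 2.04 CPM at 1 µg/kg, 6.82 ± 5.76 CPM at 3 µg/kg, 14.1 ± 4.52 CPM at 10 µg/kg and 21.3 ± 5.95 CPM at 30 µg/kg (SD, n = 5). The adjusted p against vehicle was 3.97e-05 at 1 µg/kg and 1.92e-12 at 30 µg/kg (edgeR), and the fold is imprecise because vehicle mice had so few reads. Between *Fabp5* and *Fabp4* lie *Pmp2* and *Fabp9*, which had at most 1 read in any mouse.

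**Figure D4:**
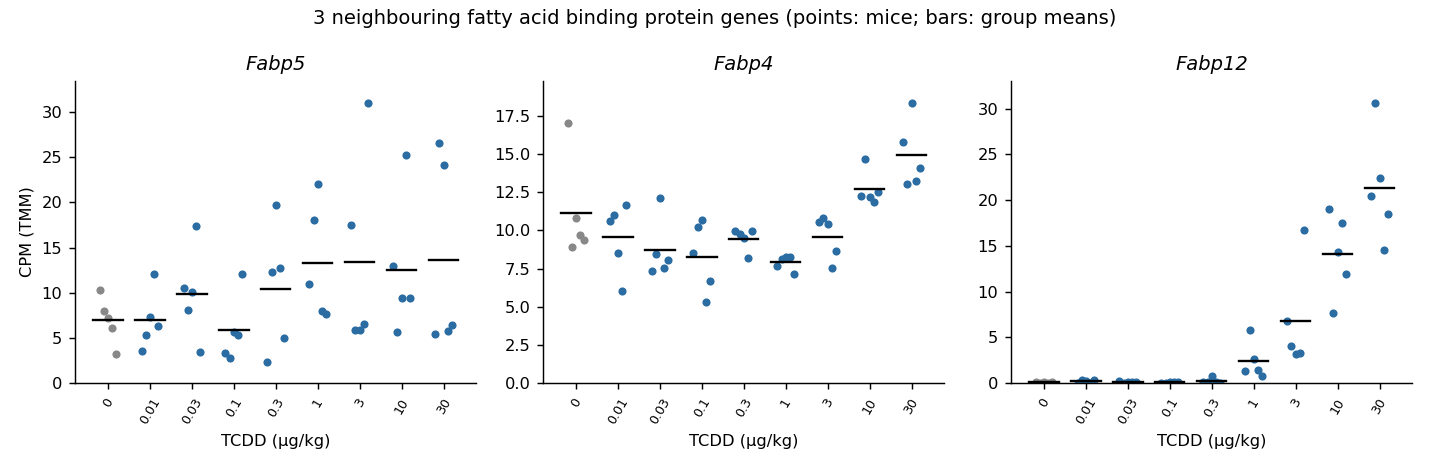
CPM (linear axes from 0) of *Fabp5*, *Fabp4* and *Fabp12*, neighbors on chromosome 3, in each of the 45 mice by dose of TCDD in µg/kg, with bars at the group means. *Fabp12* climbs from 0.0833 CPM in vehicle livers to 21.3 CPM at 30 µg/kg, *Fabp4* dips at 1 µg/kg, and *Fabp5* has a few high mice in most groups.

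The wider lipid handling genes were counted at 30 µg/kg in lists chosen by function, with earlier results of these data known. At that dose 15.5% of all genes tested were higher and 14.1% lower. Of 13 tested genes of fatty acid uptake and activation outside the members, 1 was higher and 7 were lower, with a median log2 fold change of -0.41, whereas the median of all genes was 0.02. The higher one was *Cav1*, the caveolar coat protein, from 2.59 to 5.44 CPM (log2 1.077, adjusted p 0.000658). *Acsl3*, an acyl-CoA synthetase of lipid droplets, was lowest, from 60.5 to 21.6 CPM (log2 -1.49, adjusted p 5.73e-09). Like *Slc27a2*, its relative *Slc27a5*, the bile acyl-CoA synthetase and transporter, fell (log2 -0.66, adjusted p 1.12e-05). Among 8 other lipid binding proteins 2 were higher and 1 was lower, with a median of 0.21. Of these 2, *Rbp7* stood at 0 CPM in vehicle mice and at only 0.111 ± 0.120 CPM at 30 µg/kg (adjusted p 0.0258, edgeR). By DESeq2 only 1 of the 8 was higher. *Fabp12* was the highest, and *Dbi*, the acyl-CoA binding protein, went from 568 to 306 CPM (log2 -0.89, adjusted p 2.33e-05). *Fabp1*, the main binding protein of liver, stood at 4851 ± 1068 CPM in vehicle mice and 5218 ± 1156 CPM at 30 µg/kg (adjusted p 0.732).

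Of 22 lipoprotein receptors and adaptors beside *Vldlr*, 5 were higher and 3 lower (all genes tested: 15.5% and 14.1%), with a median of 0.17. *Lrp4* was the most increased, from 44.1 to 105 CPM (log2 1.25, adjusted p 0.000137). *Sort1*, a sorting receptor for lipoproteins, was the most decreased, from 10.99 to 4.66 CPM (log2 -1.24, adjusted p 0.00587).

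Of 19 partners of lipoprotein lipase and plasma lipid transfer proteins, 3 were higher and 8 lower (all genes tested: 15.5% and 14.1%). Their median of -0.11 became 0.11 without composition factors. *Gpihbp1*, which holds lipoprotein lipase at the capillary wall, rose from 10.1 to 15.1 CPM (log2 0.59, adjusted p 0.0406). *Apoc1*, an apolipoprotein that inhibits lipoprotein clearance, was the most decreased, from 2502 to 1054 CPM (log2 -1.25, adjusted p 8.24e-07). *Apoc2*, the cofactor lipoprotein lipase needs, and *Apoc3*, which inhibits it, were both lower, by log2 -0.61 and -0.95. The inhibitor *Angptl4* had a log2 difference of -0.44 (SE 0.42, adjusted p 0.469).

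Of 25 intracellular lipases and droplet proteins beside *Pnpla2*, 4 were higher and 11 lower (all genes tested: 15.5% and 14.1%), with a median of -0.31. *Hilpda*, an inhibitor of adipose triglyceride lipase, rose from 1.33 to 3.86 CPM (log2 1.52, adjusted p 3.76e-06), and *Abhd5*, the coactivator of the same lipase, rose as well (log2 0.48, adjusted p 0.000450). *Pnpla5* was counted in every vehicle mouse, at 0.0505 to 0.637 CPM, and had no read in any mouse at 30 µg/kg, so no fold is given. *Pnpla3*, a close relative of *Pnpla2*, went from 10.1 ± 7.91 to 0.549 ± 0.232 CPM (log2 -4.17, adjusted p 1.28e-05). Of 17 nuclear receptors and cofactors tied to lipid genes 0 were higher by edgeR or DESeq2 and 5 were lower, with a median of -0.16 that became 0.05 without composition factors. *Srebf1* fell the most, from 309 to 129 CPM (log2 -1.26, adjusted p 2.21e-05), and *Nr1h2*, the least lowered of the 5, by 0.30. *Pparg*, whose product activates *Cd36* and *Lpl* in fat cells, stood at 9.71 ± 0.77 CPM and 9.26 ± 2.26 CPM (adjusted p 0.793).

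Markers of other liver cells also changed at 30 µg/kg. In bulk samples, more cells of a type and more RNA per cell cannot be told apart. Of the markers tested at 30 µg/kg, 8 of 16 macrophage and leukocyte markers, 8 of 11 endothelial and 2 of 7 stellate markers were higher and none lower, and 4 of 6 hepatocyte markers were lower. Of all genes tested, 15.5% were higher and 14.1% lower at that dose. *Gpnmb*, a gene of lipid-laden macrophages, rose most among the macrophage markers, from 0.134 to 17.8 CPM (log2 6.99, adjusted p 3.77e-12), and *Itgax*, *Ccr2* and *Cd68* were also higher. None of the 4 adipocyte, 4 intestinal or 5 biliary markers tested was called. *Vwf* rose most among the endothelial markers (log2 1.24, adjusted p 9.04e-05) and *Reln* among the stellate ones (log2 1.71, adjusted p 2.37e-12).

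The summed macrophage markers ran from 186 to 300.0 CPM in vehicle mice, from 226 to 542 CPM at 1 µg/kg and from 183 to 537 CPM at 30 µg/kg. At 1 µg/kg, the lowest dose at which *Lpl* was called, 3 of the 5 sums lay above every vehicle mouse, and the order of the 5 sums was that of the *Lpl* levels. The sums of 226, 296, 374, 441 and 542 CPM went with 29.5, 42.5, 46.3, 49.9 and 56.4 CPM of *Lpl*. The 2 orders differed at 3, 10 and 30 µg/kg. At 3 µg/kg sums of 264, 282, 358.5, 465 and 755 CPM went with 50.4, 65.35, 38.9, 49.1 and 63.65 CPM of *Lpl*. At 10 µg/kg sums of 297, 325, 328.5, 383 and 456 CPM went with 98.0, 81.5, 90.7, 124.5 and 78.7 CPM. In the 30 µg/kg group the mouse with the lowest sum, 183 CPM, had 74.7 CPM of *Lpl*, and the mouse with the highest, 537 CPM, had 76.8 CPM. The summed endothelial markers ran from 208 to 270 CPM in vehicle mice, from 202 to 248 CPM at 1 µg/kg, from 288 to 327 CPM at 10 µg/kg and from 244 to 393 CPM at 30 µg/kg. Stellate sums lay wholly above those of vehicle mice in the 10 and 30 µg/kg groups, with 142 to 181 CPM in vehicle mice, 157 to 241 CPM at 1 µg/kg, 215 to 287 CPM at 10 µg/kg and 277 to 376 CPM at 30 µg/kg. The part of these cells in the levels of *Cd36* and *Lpl* was not tested. *Fabp4* had its highest mean levels in the 2 dose groups with the highest endothelial sums, and the part of these cells in its level was not tested. The summed adipocyte markers, of which *Adipoq*, *Lep* and *Plin1* had no read at 30 µg/kg, stayed at 0.0974 to 0.981 CPM in all mice.

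**Figure D5:**
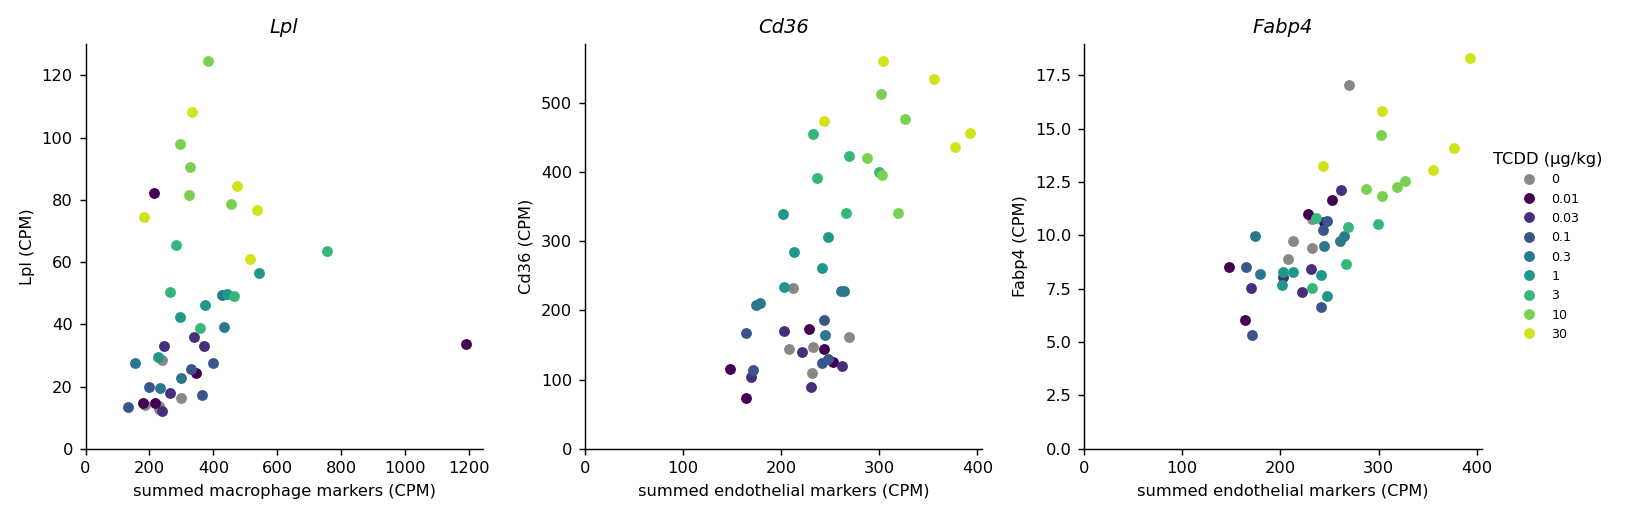
Each point is 1 of the 45 mice, colored by dose of TCDD in µg/kg with vehicle mice in gray. *Lpl* is plotted against the summed macrophage markers and *Cd36* and *Fabp4* against the summed endothelial markers, all in CPM on linear axes from 0. At 1 µg/kg *Lpl* climbs with the macrophage sum, from 29.5 to 56.4 CPM, and the mouse with 1191 CPM of these markers has 33.7 CPM of *Lpl*.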

How the data were processed

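The raw counts per gene deposited by the authors, 1 set per mouse, were made from reads aligned with Bowtie and TopHat 1.4.1 and counted on Ensembl genes of GRCm38 with HTSeq 0.6.1, and were not normalized. Reads aligned to more than 1 place are not in these counts, and 1.4% of the 50-base stretches of *Lpl* also occur in other genes. The sequencing pools are not in the labels, so no value within a pool is given. Rows that name no gene were left out. Between 10.7% and 18.4% of the uniquely aligned reads were not assigned to a single gene, the second in 1 mouse at 0.1 µg/kg. Genes with more than 4 reads in any mouse entered 1 edgeR quasi-likelihood fit (edgeR 4.0.16, R 4.3.3) of all 45 mice, with a coefficient per group and TMM factors, and p-values were adjusted within each dose. Single genes were also compared by exact two-sided permutation tests of log2 CPM (prior count of 2). Gene positions and lengths came from GENCODE vM21, on GRCm38, and promoters from RefSeq. Alternatives were DESeq2 1.42.0 and its size factors, no composition factors, other gene filters, only the groups compared, adjustment over all doses, and each mouse left out. The members, the gene lists and the tests were chosen with earlier results of these data known. All 10 members were named, and of each list other than the markers the genes with the largest and smallest fold at 30 µg/kg among those called. Of the macrophage, endothelial and stellate markers only the gene with the largest rise was named by this rule. No called hepatocyte marker was named. *Cdx1*, *Cdx2*, *Adipoq*, *Lep* and *Plin1* were named for having no reads. *Slc27a5*, *Fabp1*, *Rbp7*, *Apoc2*, *Apoc3*, *Angptl4*, *Abhd5*, *Pnpla3*, *Pparg*, *Itgax*, *Ccr2* and *Cd68* and the other *Fabp* neighbors were named after their values were seen. 1 intron of *Cd36* and 1 of *Lipc* are longer than the aligner's limit, so reads across them could not be counted, in any group.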

Additional observations from a re-analysis of the deposited data

Results flagged for a closer look

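Each of the 10 genes was examined in each of the 9 groups for a mouse that stood far from the other 4 of its group, with Dixon's test at the 95% level. Of 90 groups 11 held such a mouse. Chance alone gives about 1 in 20 groups if values are normally distributed. The test was run on linear CPM and the same mice enter for all 10 genes, so the rate by chance here is not known. *Lpl* stood apart in vehicle replicate 1 (28.7 CPM, the other 4 mice 12.9 to 16.4 CPM) and in replicate 3 at 0.01 µg/kg (82.3 CPM, the others 14.7 to 33.7 CPM). *Fabp4* stood apart in 4 groups. The same vehicle mouse had 17.1 CPM, where the others had 8.90 to 10.8 CPM. Replicate 3 at 0.03 µg/kg had 12.1 CPM, above 7.36 to 8.44 CPM, and replicate 2 at 10 µg/kg had 14.7 CPM, above 11.83 to 12.53 CPM. Replicate 4 at 0.3 µg/kg was low at 8.18 CPM, the others being at 9.48 to 9.96 CPM. *Lipg* was high in replicate 5 at 0.3 µg/kg (43.8 CPM, the others 16.5 to 19.4 CPM) and in replicate 5 at 10 µg/kg (102 CPM, the others 26.1 to 43.4 CPM). *Lipc* was high in replicate 2 at 1 µg/kg (193 CPM, the others 153 to 163.5 CPM). *Slc27a2* was high in replicate 3 at 0.3 µg/kg (1467 CPM, the others 1058 to 1158 CPM), and *Pnpla2* in replicate 4 at 0.01 µg/kg (68.9 CPM, the others 46.9 to 50.9 CPM).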

How the results depend on the processing

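*Cd36* and *Lpl* at 1, 3, 10 and 30 µg/kg and *Lipc* at 30 µg/kg kept direction and call under the other normalizations, tools, filters and adjustments and in every fit without 1 mouse, but not all passed a required fold of 2, which left 1 member higher at 1 µg/kg and 0 lower at 3 and at 30 µg/kg. The member lower at 3 µg/kg became 0 without composition factors, without a gene filter and with only the groups compared, where the adjusted p of *Lipc* was 0.188, 0.0560 and 0.0509. Without composition factors 6 members were higher and 1 lower at 30 µg/kg, beside 4996 and 1222 of the 17464 genes tested. With adjustment over all doses 1 member was lower, beside 1767 of the genes tested. *Slc27a2* was lost in both. In that first scaling *Lipg* (log2 1.16), *Fabp4* (0.64) and *Pnpla2* (0.51) were called, and *Lipg* at 1 µg/kg (0.0304) and *Pnpla2* at 3 µg/kg (0.0896) turned from negative to positive. At 30 µg/kg *Fabp4* was also called by DESeq2 (0.43), with its size factors (0.43) and with another filter (0.45), and *Lipg* with only the groups compared (0.94). Exact tests on ranks gave 0 members with p under 0.05 at 0.3 µg/kg, against 1 (*Lpl*) on log2 CPM.

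Leaving out 1 mouse gave 2 to 4 members higher and 1 to 2 lower at 30 µg/kg, and 0 to 1 lower at 3 µg/kg. Uncalled differences near 0 changed sign, with ranges of -0.0849 to 0.22 for *Vldlr* and -0.28 to 0.24 for *Lipg* at 1 µg/kg, and of -0.0129 to 0.15 for *Fabp2* and -0.0680 to 0.0623 for *Pnpla2* at 3 µg/kg. The causes were not tested. No paired analysis was possible because the replicates were numbered only in accession order. The lowest read numbers in a mouse were 30 for *Fabp5*, 85 for *Lipg* and 86 for *Fabp4*.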
